A study of Mus musculus with 130 samples.

Results

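Genes with lower expression in all 4 of the mutant mouse embryonic stem cell lines profiled by RNA-seq, set against both wild types, are described here. They were selected on measured values: at least 5 TPM (the RSEM level, corrected for gene length and library total) in both wild types, with (TPM + 1) in each mutant at most 0.67 of that in both. Of the 52550 genes measured, 6313 had at least 5 TPM in both wild types, and 68 of these met all 8 comparisons, which is a percentage of 1.08. Chac1 and Ddit3, known targets of the amino acid and endoplasmic reticulum stress response, were left out by name, and 66 members remained. The level of the members in those 6 libraries is therefore a description and carries no test.

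Each of the 10 groups had 1 library, so no spread between replicates could be estimated, and every interval is an exact 95% interval of a count ratio and leaves out all variation but counting error. The G9a/GLP DKO-labelled library came from TT2 cells of C57BL/6xCBA background with the genotype G9a-/-;GLP-/- (clone 248-6), and G9a CM from TT2 cells lacking G9a that carry a G9a transgene with the changes Y1120V and Y1207F (clone G7). Dnmt3a/3b DKO cells, of 129S4/SvJae background, lacked both de novo DNA methyltransferases. Dnmt1/3a/3b TKO cells of that background also lacked the maintenance enzyme. UNC0638, an inhibitor of G9a and GLP, was given to wild-type TT2 cells that were collected on day 2, 4 or 14, and DMSO-treated wild-type TT2 cells, called the inhibitor control, were set against them. Titles give its dose as 250 nM, whereas 250 µM stands in the treatment protocol. WT TT2 and WT J1 were the wild types of the TT2 (C57BL/6xCBA) and J1 (129S4/SvJae) lines. Serum, leukemia inhibitory factor and gelatin-coated plates were used for all cells. The labels name 1 clone for each G9a line and no clone for the Dnmt lines, and no batch is recorded for any library. In bulk cultures, fewer cells expressing a gene and less RNA per cell cannot be told apart.

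G9a and GLP form a complex that places dimethylation on lysine 9 of histone H3, a mark of repressed chromatin, and the DNA methyltransferases add methyl groups to cytosine, mostly at CpG dinucleotides. Both marks are best known for silencing genes and retrotransposons in embryonic stem cells. Genes with less mRNA when such enzymes are missing are the opposite direction from de-repression. A mirrored rule (all 4 mutants at least as far above both wild types, with at least 5 TPM in the mutants in place of the wild types) found 169 genes. It drew on another set of genes than the 66, so the counts are not compared. The 66 became 149 with TPM rescaled between libraries (TMM factors), and the raised count was not rescaled.

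The libraries held 11436808 to 25609600 counts. In the G9a/GLP DKO-labelled library, Ehmt1, which encodes GLP, had 6.71 TPM against 23.9 TPM in WT TT2, while Ehmt2, which encodes G9a, had 18.0 CPM (counts scaled for library size) against 15.2 CPM in WT TT2 and so was not lower. Which part of Ehmt2 is deleted was not looked up here, so its count is no check of the knockout. Dnmt3b had 1.02 TPM in the Dnmt3a/3b DKO library and 0.810 TPM in the Dnmt1/3a/3b TKO library, against 5.30 TPM in WT J1, and Dnmt1 had 2.04 TPM in Dnmt1/3a/3b TKO, against 15.7 TPM in WT J1. Dnmt3a had 5.07 and 4.49 TPM in those mutants, against 4.66 TPM in WT J1, and 4.27 and 4.71 CPM, against 17.1 CPM in WT J1. The summed level of 10 embryonic stem cell markers was 16325 to 27204 TPM in the mutants, 10918 to 14164 TPM in the inhibitor libraries, and 10789 and 41574 TPM in WT TT2 and WT J1. The 11 feeder fibroblast markers found summed to 7.80 to 12.7 TPM in the mutants, 28.0 to 49.7 TPM in the inhibitor libraries, and 8.94 and 6.10 TPM in WT TT2 and WT J1, with Col1a2, Col3a1, Dcn, Lum and Postn under 1 TPM throughout. Trophoblast markers (10 found) summed to at most 61.9 TPM in the mutants, 73.6 to 126 TPM in the inhibitor libraries, and 28.6 and 12.6 TPM in WT TT2 and WT J1, with Cdx2 under 1 TPM throughout. Neural markers (10 found) summed to 26.6 to 35.0 TPM in the mutants, 124 to 153 TPM in the inhibitor libraries, and 22.4 and 7.32 TPM in WT TT2 and WT J1. The part of such cells in the results was not tested.

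Of the 66 members, 56 have a symbol in the tables used here and 10 do not (15.2%, against 14.0% of the genes with at least 5 TPM). RefSeq types were found for 53 members: 41 are protein-coding, 5 are long noncoding RNAs, 3 are small nucleolar RNAs, 2 are microRNAs and 2 are pseudogenes. The members differed greatly in how many reads they rest on. Mir293, Gm22711, Gm11966, Snord87, Snord89 and Mir6409, which have the lowest ratios of all, are listed genes of 80.0 to 135 nucleotides with 1 to 6 counts in each wild type and 0 counts in the 8 other libraries. Their 6.07 to 38.6 TPM in the wild types come from a very short effective length, and a count of 0 allows up to 3 counts, so they are not read further. The other 60 members had at least 20 counts in each wild type, and for 59 of these the counting interval lay below 1 in all 8 comparisons (Nsun6, an RNA methyltransferase, in all but 1). The rule had selected on these same comparisons, so the intervals describe read depth and lend the selection no support. The description of single members is limited to these 60.

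Members with roles in lipid and acyl-CoA metabolism made up 8 of the 29 members that could be put in a textbook role group. The groups were drawn up after the values were known and are used for order only. Bdh2, a short-chain dehydrogenase linked to hydroxybutyrate and siderophore metabolism, had the lowest ratio of the 60. It stood at 5.40 TPM in the G9a/GLP DKO-labelled library, 16.9 TPM in G9a CM, 17.9 TPM in Dnmt3a/3b DKO and 18.0 TPM in Dnmt1/3a/3b TKO, against 86.7 TPM in WT TT2 and 176 TPM in WT J1. The mutants lay far below both wild types, and the G9a/GLP DKO-labelled library lay apart from the other mutants. Dbi, the acyl-CoA binding protein that carries fatty acyl-CoA in the cytosol, was the most abundant named member. Its levels were 1195 TPM in the G9a/GLP DKO-labelled library, 1316 TPM in G9a CM, 1265 TPM in Dnmt3a/3b DKO and 1183 TPM in Dnmt1/3a/3b TKO, against 3181 TPM in WT TT2 and 2354 TPM in WT J1. Of the 60 members, Dbi varied least among the mutants, with a ratio of the highest to the lowest (TPM + 1) of 1.11, where the median member had 1.66. Acot13, a thioesterase that splits acyl-CoA, had 106 to 162 TPM in the mutants, against 302 TPM in WT TT2 and 488 TPM in WT J1. Insig2, which holds the sterol sensor of cholesterol synthesis in the endoplasmic reticulum, had 11.5 to 14.5 TPM in the mutants, against 33.3 TPM in WT TT2 and 23.8 TPM in WT J1. The group also holds Ormdl1, a regulator of sphingolipid synthesis, G0s2, an inhibitor of fat breakdown, Pex2, a peroxisome assembly factor, and Tmem159, a lipid droplet protein. Over the 8 genes, the median log2 difference of (TPM + 1) from the lower wild type was -0.99 in the G9a/GLP DKO-labelled library, -0.92 in G9a CM, -0.89 in Dnmt3a/3b DKO cells and -0.99 in Dnmt1/3a/3b TKO cells.

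The upstream sequence of Bdh2 is shown because this member, with the lowest ratio of the 60, has few CpG dinucleotides, the substrate of the enzymes missing in 2 of the lines. It is the 250 bases before the RefSeq start site (build GRCm38.p6), chr3:135280971-135281220, plus strand, and its 5 CpG dinucleotides are in capitals.
Bdh2: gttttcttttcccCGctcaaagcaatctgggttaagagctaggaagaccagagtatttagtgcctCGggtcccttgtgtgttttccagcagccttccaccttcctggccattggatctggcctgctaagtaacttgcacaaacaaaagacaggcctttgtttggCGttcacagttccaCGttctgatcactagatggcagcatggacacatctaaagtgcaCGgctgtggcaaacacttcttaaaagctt

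RefSeq promoters (250 bases before to 50 after the start) were matched for 39 members. A promoter was counted as rich in CpG at an observed over expected ratio of at least 0.6 and at least 50% G and C in any of the gene's start windows, and 21 of the 39 members (53.8%) had one, against 78.3% of the matched genes with at least 5 TPM and 36.0% of all genes in the promoter table. With a ratio of at least 0.75 the shares were 41.0% of the members, 60.8% of the genes with at least 5 TPM and 26.1% of all genes. Bdh2, S100a1, Epp13, Wfdc10, Efcab10, G0s2, Ctsl, Cd302 and Arl14ep were among the 18 members without a CpG-rich window. DNA methylation at these promoters was not analysed here.

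Motifs were searched on both strands in the same windows. The site TGATGCAA of ATF4, the transcription factor of the amino acid response, was found in 2 members (5.13%), Insig2 and Sh3bgrl, against 0.805% of the genes with at least 5 TPM and 1.03% of all genes. The window around it is shown for both, from GRCm38.p6, with the site in capitals: Insig2, chr1:121328169-121328228, minus strand, and Sh3bgrl, chrX:109095335-109095394, plus strand.
Insig2: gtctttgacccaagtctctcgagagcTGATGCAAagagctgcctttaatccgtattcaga
Sh3bgrl: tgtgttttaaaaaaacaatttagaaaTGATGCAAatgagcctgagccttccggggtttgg
The cyclic AMP response element TGACGTCA was in 2 members (Amn1 and Tmem251, 5.13%, against 4.38% of the genes with at least 5 TPM and 2.03% of all genes). The E-box CACGTG was in 4 (2810408I11Rik, Ciart, Ctsl and Vamp4, 10.3%, against 13.2% and 8.09%), and TATAAA was in 2 (Cenpk and 2310030G06Rik, 5.13%, against 8.64% and 15.7%). No motif searched contains another. These matches are letters in a window and describe no binding, and with so few of them the shares are given as values only.

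Proteolysis and conjugation of ubiquitin-like proteins was represented by 5 members. Ctsl, the lysosomal protease cathepsin L, had 152 TPM in the G9a/GLP DKO-labelled library, 114 TPM in G9a CM, 212 TPM in Dnmt3a/3b DKO and 155 TPM in Dnmt1/3a/3b TKO, against 355 TPM in WT TT2 and 558 TPM in WT J1. Ube2t, the ubiquitin-conjugating enzyme of the Fanconi anaemia DNA repair pathway, had 115 to 169 TPM in the mutants, against 385 TPM in WT TT2 and 300 TPM in WT J1. Nae1, a subunit of the enzyme that activates NEDD8, had 137 to 175 TPM in the mutants, against 283 and 302 TPM in WT TT2 and WT J1. The range of the mutants was narrow in Nae1 and wide in Fbxo16, an F-box protein, which had 0.720 TPM in the G9a/GLP DKO-labelled library and 5.02 TPM in G9a CM, against 9.09 and 8.93 TPM in WT TT2 and WT J1. Yod1, a deubiquitinase, was close to the minimum level, at 2.23 to 3.05 TPM in the mutants, against 5.65 and 6.33 TPM in WT TT2 and WT J1.

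Members with roles on chromosomes and in RNA included Cenpk, a subunit of the constitutive centromere complex. It had 42.1 TPM in the G9a/GLP DKO-labelled library, 69.4 TPM in G9a CM, 99.3 TPM in Dnmt3a/3b DKO and 76.2 TPM in Dnmt1/3a/3b TKO, against 198 TPM in WT TT2 and 306 TPM in WT J1. Chd2, a chromatin remodeller, had 6.77 to 12.9 TPM in the mutants, against 20.6 and 22.0 TPM in WT TT2 and WT J1. The lowest mutant was the G9a/GLP DKO-labelled library for Cenpk and Dnmt1/3a/3b TKO for Chd2. Among the detoxifying enzymes, Esd (S-formylglutathione hydrolase) had 233 to 284 TPM in the mutants, against 440 TPM in WT TT2 and 966 TPM in WT J1. Mgst3, a microsomal glutathione transferase, had 34.1 to 67.9 TPM in the mutants, against 133 and 113 TPM in WT TT2 and WT J1. Tpmt, which methylates thiopurines, had 16.6 TPM in the G9a/GLP DKO-labelled library and 30.3 to 35.0 TPM in the other mutants, against 61.6 and 58.9 TPM in WT TT2 and WT J1.

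Signalling and clock genes were furthest down in the G9a/GLP DKO-labelled library, with a median log2 difference from the lower wild type of -2.50 over 5 genes, against -1.02 in G9a CM, -0.97 in Dnmt3a/3b DKO cells and -1.42 in Dnmt1/3a/3b TKO cells. That library also had the lowest median for the detoxifying (-1.70), ubiquitin-like and proteolysis (-1.22) and membrane protein (-1.11) groups. It shared the lowest with Dnmt1/3a/3b TKO for the lipid group and did not have it for chromosomes and RNA. S100a1, a calcium-binding protein best known from muscle, had 3.11 TPM in the G9a/GLP DKO-labelled library, 3.82 TPM in G9a CM, 7.19 TPM in Dnmt3a/3b DKO and 4.53 TPM in Dnmt1/3a/3b TKO, against 22.2 TPM in WT TT2 and 53.8 TPM in WT J1. Insl6, an insulin-like peptide of the testis, varied most among the mutants, with 3.44 TPM in the G9a/GLP DKO-labelled library and 15.6 TPM in Dnmt3a/3b DKO, against 33.7 and 31.5 TPM in WT TT2 and WT J1. Its ratio of the highest to the lowest mutant (TPM + 1) was 3.73. Ciart, a repressor of the circadian clock, had 5.09 TPM in the G9a/GLP DKO-labelled library and 12.6 to 20.4 TPM in the other mutants, against 35.3 and 41.4 TPM in WT TT2 and WT J1. Tsc22d3, the glucocorticoid-induced leucine zipper protein, had 1.71, 3.18, 2.29 and 0.950 TPM in the G9a/GLP DKO-labelled library, G9a CM, the Dnmt3a/3b DKO and the Dnmt1/3a/3b TKO lines, against 9.23 and 6.11 TPM in WT TT2 and WT J1.

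Other members with the lowest ratios or the highest levels follow, and a missing symbol reflects only the symbol table used here. Epp13, an epididymal protein gene, had 11.2 TPM in the G9a/GLP DKO-labelled library, 13.1 TPM in G9a CM, 13.7 TPM in Dnmt3a/3b DKO and 9.20 TPM in Dnmt1/3a/3b TKO, against 30.2 and 33.0 TPM in WT TT2 and WT J1. Wfdc10, a gene of the whey acidic protein family, had 1.34 to 4.30 TPM in the mutants, against 10.8 and 10.0 TPM in WT TT2 and WT J1. ENSMUSG00000010830.7, which has no symbol here, had 8.36 to 14.2 TPM in the mutants, against 38.2 TPM in WT TT2 and 94.4 TPM in WT J1. The most abundant member of all, ENSMUSG00000036438.12, had 1475 to 2004 TPM in the mutants, against 3250 and 3013 TPM in WT TT2 and WT J1. Gm10800 had 27.4 to 64.3 TPM in the mutants, against 126 TPM in WT TT2 and 1847 TPM in WT J1, and Gm10801 had 3.18 to 6.48 TPM in the mutants, against 14.9 and 168 TPM in WT TT2 and WT J1. These predicted genes resemble each other by name and in being far higher in WT J1 than in WT TT2, while their levels differ. Whether reads are shared between similar copies was not tested, so their values are taken as uncertain.

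**Figure D1:**
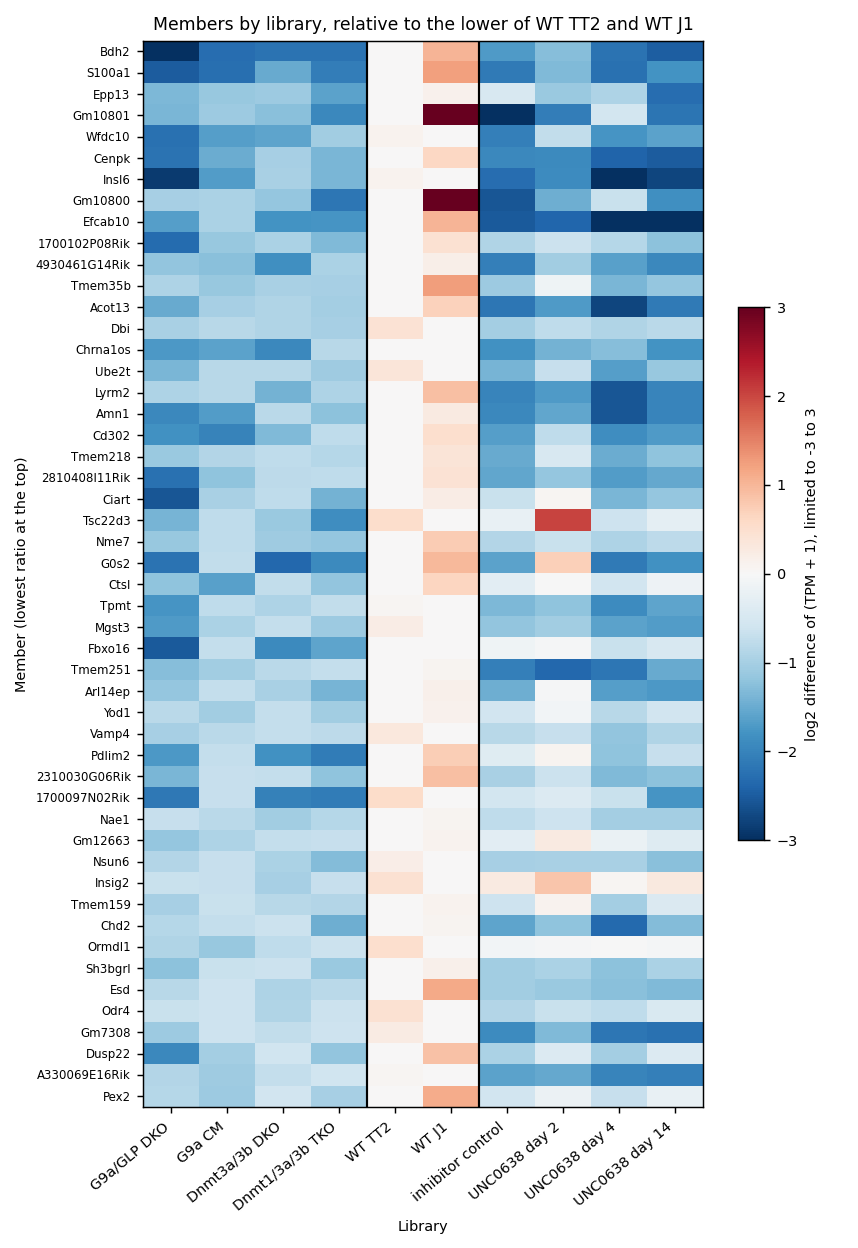
Heat map of the 50 named members with at least 20 counts in each wild type (rows, lowest ratio at the top) in the 10 libraries (columns), as log2 difference of (TPM + 1) from the lower of WT TT2 and WT J1, with blue for lower and red for higher. The 4 mutants on the left are blue by selection, and most rows are blue again in the inhibitor control and the UNC0638 libraries on the right.

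Among the 60 members, the lowest of the 4 mutants was the G9a/GLP DKO-labelled library for 28, G9a CM for 6, Dnmt3a/3b DKO for 13 and Dnmt1/3a/3b TKO for 13. The same split was not counted over the genes with at least 5 TPM, so it is not read as particular to the members. The G9a/GLP DKO-labelled library is also the shallowest. Over all 66, the median log2 difference of (TPM + 1) from WT TT2 was -1.41, -1.10, -1.08 and -1.22 in the G9a/GLP DKO-labelled library, G9a CM, the Dnmt3a/3b DKO and the Dnmt1/3a/3b TKO lines, where the genes with at least 5 TPM had 0.03, 0.06, -0.08 and -0.07. From WT J1 it was -1.93, -1.44, -1.58 and -1.58, where those genes had 0.34, 0.34, 0.27 and 0.24. The wild types themselves differed: WT J1 was above WT TT2 for 40 of the 60 members, at least 1.5 times as high for 21 of them, and at most 1/1.5 as high for 1. The median ratio of WT J1 to WT TT2 in (TPM + 1) was 1.10 for the 60. Over the genes with at least 5 TPM, the median log2 difference of WT J1 from WT TT2 was -0.32. How many of those genes passed 1.5 was not counted. The members just inside the threshold were A330069E16Rik, ENSMUSG00000036438.12 and Pex2, with a highest mutant of 0.664, 0.665 and 0.666 of the lower wild type. Etfrf1 and Fuca2 were just outside, at 0.671 and 0.672. The number of members rests on single libraries: without WT TT2 the rule found 568 genes, without WT J1 361 and without G9a CM 103.

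The inhibitor control, a wild-type TT2 library that the rule did not use, was low for most members, like the mutants. It was at most 0.67 of both wild types for 51 of the 66 members, and for 45 of the 60 with enough counts (75.0%), against 27.8% of the genes with at least 5 TPM. Of the 60, its TPM lay below every mutant for 17, within the range of the mutants for 22, between the mutants and the lower wild type for 17 and above the lower wild type for 4. These positions were not counted over the genes with at least 5 TPM. Dbi had 1166 TPM in the inhibitor control, against 3181 and 2354 TPM in WT TT2 and WT J1. Acot13 had 66.5 TPM in the inhibitor control, against 302 and 488 TPM in WT TT2 and WT J1. S100a1 had 4.36 TPM there, against 22.2 and 53.8 TPM in WT TT2 and WT J1, and Cenpk had 51.4 TPM, against 198 and 306 TPM. For these 4 genes a wild-type culture of the TT2 line lay within or below the range of the mutants.

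By the call rule on counts (a ratio of (CPM + 1) of at least 1.5 or at most 1/1.5, where CPM is the count scaled for library size, at least 1 CPM in either library and a counting interval that leaves out 1), 54 of 60 members tested were lower in the inhibitor control than in WT TT2, where 35.6% of all genes tested were lower, and 48.0% of the genes with at least 5 TPM. Of the 60, 1 was higher, where 33.8% of all genes tested and 22.6% of the genes with at least 5 TPM were. Against WT J1, 57 of 60 members were lower, where 38.0% of all genes tested and 47.3% of the genes with at least 5 TPM were, and 0 were higher, where 38.7% of all genes tested and 28.3% of the genes with at least 5 TPM were. The members had been chosen for high values in both wild types, so only the inhibitor control's side of these comparisons is free of the rule. Their median log2 difference of (CPM + 1) in the inhibitor control was -1.57 from WT TT2 and -1.98 from WT J1, where all genes tested had -0.07 and 0.02.

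**Figure D2:**
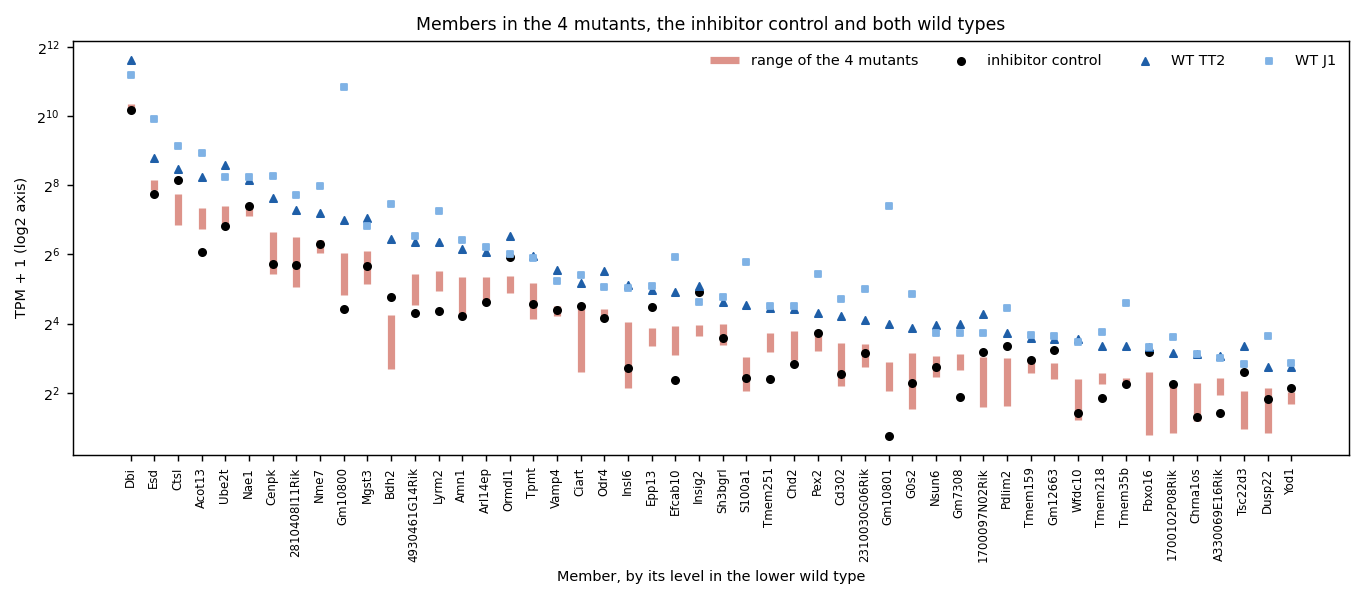
Level (TPM + 1, log2 axis) of the 50 named members with at least 20 counts in each wild type, ordered by the lower wild type, with the range of the 4 mutants as a bar and the inhibitor control, WT TT2 and WT J1 as points. The inhibitor control lies inside or below the bar for most members, and Insig2 is the named member in which it lies above the lower wild type.

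Set against the inhibitor control in place of WT TT2 and WT J1, all 4 mutants were at most 0.67 as high for 7 members, where 21.1% of the genes with at least 5 TPM were. They were Epp13, Fbxo16, Insig2 and 4 members without a symbol. Epp13 had 9.20 to 13.7 TPM in the mutants, against 21.2 TPM in the inhibitor control. Fbxo16 had 0.720 to 5.02 TPM in the mutants, against 8.15 TPM in the inhibitor control. Insig2 had 11.5 to 14.5 TPM in the mutants, against 28.9 TPM in the inhibitor control, so that its mutants lay below all 3 wild-type libraries without overlap. Taken 1 mutant at a time, the G9a/GLP DKO-labelled library was at most 0.67 of the inhibitor control for 20 members, G9a CM for 12, Dnmt3a/3b DKO for 13 and Dnmt1/3a/3b TKO for 12, where 29.4%, 26.9%, 34.0% and 33.7% of the genes with at least 5 TPM were. The count of 7 was 4 with TPM rescaled by TMM factors, 3 at a threshold of 0.5 and 15 relative to the median of genes of like length.

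Gene length moved with the inhibitor control. The median gene length was 1148 nucleotides for the members and 1716 for the genes with at least 5 TPM, and 39.4% of the members were under 1000 nucleotides, against 22.4%. Both member values include the small RNAs with few counts, and the median of the members with at least 20 counts was 1213 nucleotides. The gap between length and effective length, which follows the fragment length of a library, was 251 to 275 nucleotides in the 4 inhibitor libraries, 184 to 198 in the mutants, 150 in WT TT2 and 186 in WT J1. The median log2 difference of (TPM + 1) between the inhibitor control and WT TT2 was -1.24 for genes of 300 to 600 nucleotides, -0.80 for 600 to 1000, -0.18 for 1000 to 1500 and 0.35 for 2000 to 3000. In the mutants, the medians against WT TT2 over those 4 classes lay between -0.28 and 0.19. Against WT J1, the mutants also sloped with length: the G9a/GLP DKO-labelled library had -0.36, G9a CM -0.38, Dnmt3a/3b DKO cells -0.23 and Dnmt1/3a/3b TKO cells -0.17 for genes of 300 to 600 nucleotides, and 0.45, 0.50, 0.37 and 0.31 for 2000 to 3000. The inhibitor control had -1.56 and 0.75 for these 2 classes against WT J1. For genes over 5000 nucleotides it had -0.77 against WT TT2 and -0.52 against WT J1. Its low values were thus not confined to short genes. With each gene set relative to its length class, the inhibitor control was at most 0.67 of both wild types for 39 of the 66 members, where 24.3% of the genes with at least 5 TPM were, and the 4 mutants met the rule for 83 genes, 50 of them members. The part of library preparation in the low values was otherwise not tested.

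**Figure D3:**
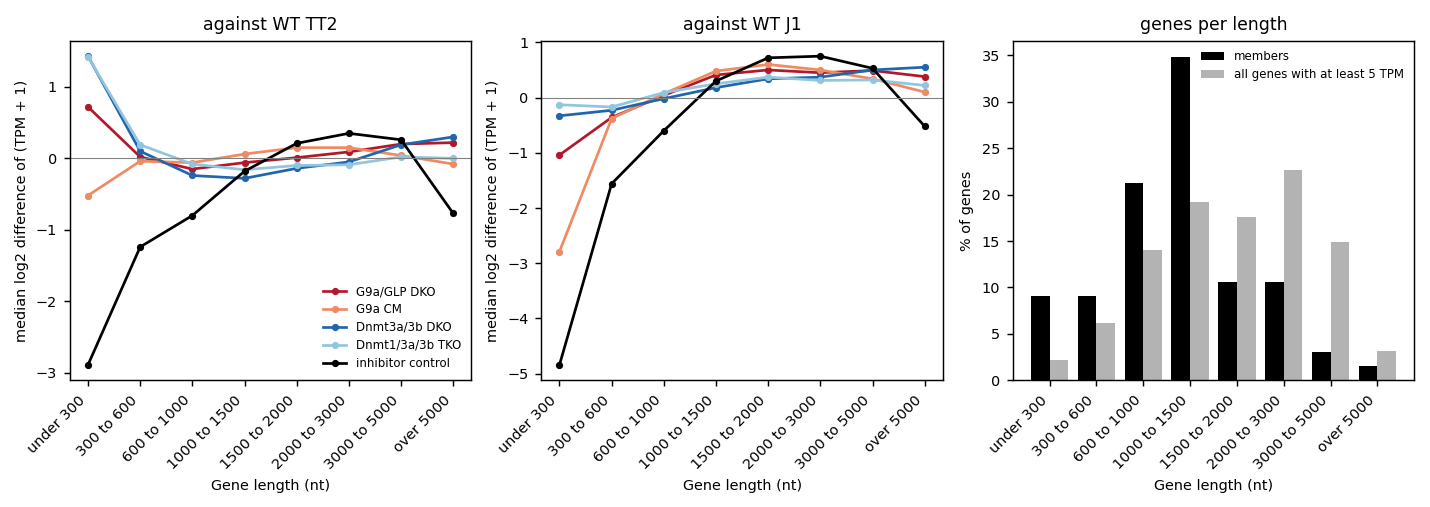
Median log2 difference of (TPM + 1) by gene length for genes with at least 5 TPM in both wild types, in the 4 mutants and the inhibitor control against WT TT2 (left) and WT J1 (middle), and the share of members and of those genes in each length class (right). The inhibitor control falls off steeply for short genes and is also low for genes over 5000 nucleotides. The members are shifted to short classes.

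Chromosome 1 held 13 of the 53 placed members (24.5%), where it held 6.69% of the placed genes with at least 5 TPM. They were Dbi, Ube2t, Nme7, G0s2, Mgst3, Yod1, Vamp4, Insig2, Ormdl1, Odr4, 2810408I11Rik, Snord87 and Snord89. Of the placed members with at least 20 counts, 11 were on chromosome 1 and 37 elsewhere. Among the 53 placed members, no 2 lay within 1 Mb of each other, and the 13 unplaced ones, Gm10800 and Gm10801 among them, could not be compared. The median log2 difference of all chromosome 1 genes from WT TT2, relative to that of all genes with at least 5 TPM, was -0.49 in the G9a/GLP DKO-labelled library, -0.49 in G9a CM, -0.41 in Dnmt3a/3b DKO cells and -0.46 in Dnmt1/3a/3b TKO cells, and -0.08 in the inhibitor control. From WT J1 the differences were -0.18, -0.17, -0.12 and -0.18 in the same mutants and 0.12 in the inhibitor control. WT J1 itself had -0.29 against WT TT2 on this scale, so a low chromosome 1 against WT TT2 was not confined to the mutants. Against WT J1, chromosome 12 was about as low in the mutants, at -0.20, -0.20, -0.17 and -0.18, and chromosome X stood at -0.31, -0.24, -0.13 and -0.17. With each gene set relative to the median of its chromosome, the rule found 80 genes, among them 56 of the 66 members and 7 of the 13 on chromosome 1. Dbi, Ube2t, Insig2, Ormdl1 and Odr4 were among these 7, while Nme7, G0s2, Mgst3, Yod1, Vamp4 and 2810408I11Rik were lost. Copy number was not tested.

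**Figure D4:**
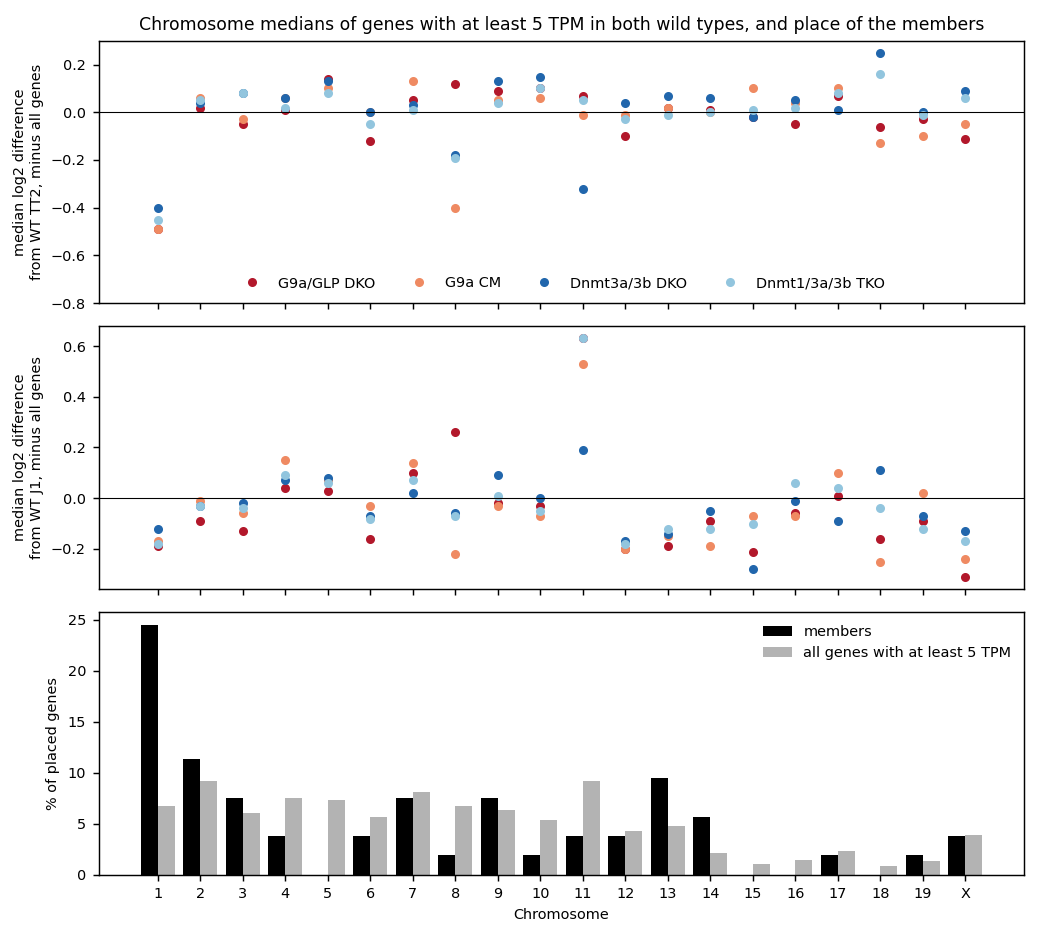
Median log2 difference of (TPM + 1) per chromosome, minus the median of all genes with at least 5 TPM in both wild types, for the 4 mutants against WT TT2 (top) and WT J1 (middle), and the share of placed members and of placed genes with at least 5 TPM on each chromosome (bottom). Against WT TT2, chromosome 1 is low in all 4 mutants, and it holds 24.5% of the placed members. Against WT J1, chromosomes 12 and X lie about as low.

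The UNC0638 libraries, which the rule did not use, show whether members fell below the inhibitor control when the methyltransferase was inhibited in wild-type TT2 cells. That control was itself within the range of the mutants for 22 of the 60 members and below every mutant for 17. In it, 11 of the 66 members had under 20 counts. The calls therefore describe change from an already low level, and whether inhibition lowers the members from the level of WT TT2 was not tested. On each day most members tested were not called lower. The share called lower was under that of the genes with at least 5 TPM on day 2, and above it on days 4 and 14. On day 2, 3 of 55 members tested were lower than in the inhibitor control, where 8.55% of all genes tested and 9.57% of the genes with at least 5 TPM were, and 13 were higher (23.6%), where 11.6% of all genes tested and 5.19% of the genes with at least 5 TPM were. On day 4, 6 of 56 were lower (10.7%), where 3.55% of all genes tested and 1.45% of the genes with at least 5 TPM were, and 2 were higher (3.57%), where 5.34% of all genes tested and 1.33% of the genes with at least 5 TPM were. On day 14, 7 of 55 were lower (12.7%), where 4.24% of all genes tested and 3.03% of the genes with at least 5 TPM were, and 0 were higher, where 6.28% and 1.43% were. The median log2 difference of (CPM + 1) of the members was 0.10 on day 2, -0.22 on day 4 and -0.16 on day 14, where all genes tested had -0.01, 0.03 and -0.06. Of the 13 members higher on day 2, 12 were not called higher on either later day, and no member was called the same way on all 3 days. All 3 days share the 1 inhibitor control library, and the day 2 count of 13 was 8 with DESeq2 size factors. The 3 lower on day 2 were 1 with total counts and 1 with deposited TPM, and the 7 lower on day 14 were 4 and 3.

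The largest day 2 ratios were in 2 genes known to respond to hormones and nutrients. Tsc22d3 had 5.05 TPM in the inhibitor control, 28.2 TPM on day 2, 3.61 TPM on day 4 and 4.84 TPM on day 14, so that only day 2 stood apart. Its day 2 ratio of CPM was 4.68 (interval 3.75 to 5.90). G0s2 had 3.85 TPM in the inhibitor control, 23.3 TPM on day 2, 2.38 TPM on day 4 and 3.18 TPM on day 14, with a day 2 ratio of 4.81 (3.21 to 7.50). Arl14ep, whose function is little known, had 23.6 TPM in the inhibitor control, 64.6 TPM on day 2, 20.3 TPM on day 4 and 19.4 TPM on day 14, with a day 2 ratio of 2.19 (2.02 to 2.38). The day 2 TPM of Tsc22d3 and G0s2 was above that in WT TT2, and in all 3 genes the later days were at or below the inhibitor control. Tmem218, a protein of the cilium, had a day 2 ratio of 2.00 (1.52 to 2.67) and Chd2 one of 1.76 (1.48 to 2.10). Tmem35b, 4930461G14Rik and Cd302, a C-type lectin receptor, had day 2 ratios of 1.73, 1.64 and 1.63. The predicted gene Gm10800 was higher on day 2, at 1.73 times the inhibitor control (1.36 to 2.22), and on day 4, at 3.76 times (3.00 to 4.74). Gm10801, whose level is uncertain as said above, had larger ratios of 3.08 on day 2, 13.3 on day 4 and 2.95 on day 14. The day 2 and day 14 ratios of Gm10801 were not called.

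Of the 3 members lower on day 2, Epp13 was lower again on day 14, and Tmem251 was not, with ratios of 0.620 (0.487 to 0.788) on day 2 and 1.41 (1.15 to 1.74) on day 14. Epp13 had 21.2 TPM in the inhibitor control, 13.5 TPM on day 2, 15.4 TPM on day 4 and 5.41 TPM on day 14, and its ratio of CPM was 0.525 on day 2 (0.394 to 0.698) and 0.232 on day 14 (0.152 to 0.346). Bdh2 had 26.2 TPM in the inhibitor control and 35.4, 17.8 and 14.9 TPM on days 2, 4 and 14, with a day 14 ratio of 0.527 (0.429 to 0.646). Cenpk had 51.4, 52.2, 36.8 and 34.3 TPM over the same libraries, with a day 14 ratio of 0.562 (0.493 to 0.641). For these genes the day 14 library was the lowest of the 4. Ciart and Pdlim2, a scaffold protein of the PDZ and LIM family, were the members called lower on both later days, with ratios of 0.526 and 0.507 on day 4 and 0.610 and 0.612 on day 14. Mgst3 was lower on day 14 at 0.617 (0.536 to 0.711) and 1700097N02Rik at 0.312 (0.177 to 0.530). On day 4, Acot13 was lower at 0.653 (0.556 to 0.767), and Insl6 and Efcab10, both with few counts, at 0.458 (0.232 to 0.871) and 0.290 (0.104 to 0.715). Dbi and Esd, both abundant, were called on no day. Dbi had 1166 TPM in the inhibitor control and 1394, 1249 and 1345 TPM on days 2, 4 and 14, and Esd had 212 TPM and then 202, 184 and 174 TPM.

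**Figure D5:**
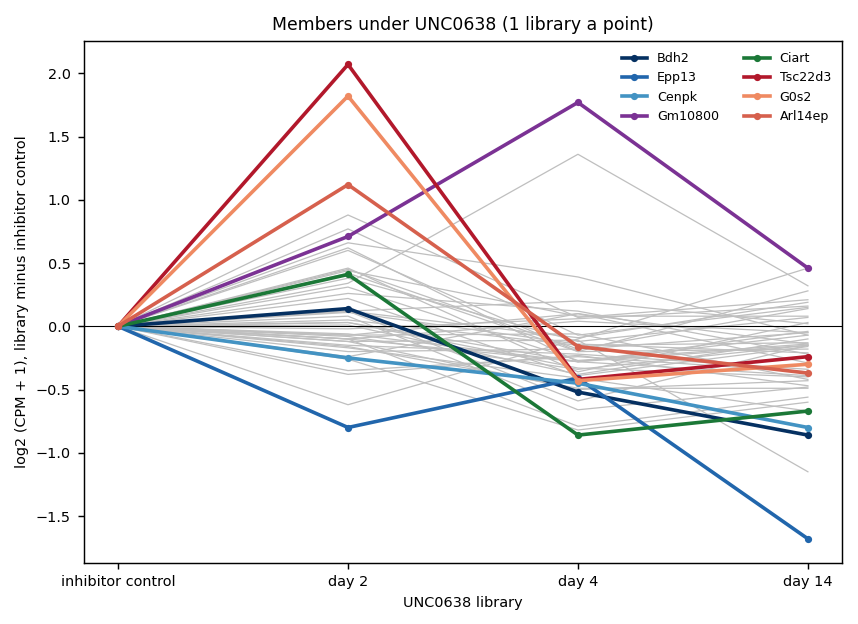
Log2 difference of (CPM + 1) from the inhibitor control on days 2, 4 and 14 of UNC0638 for the 50 named members with at least 20 counts in each wild type, 1 line a gene and 1 library a point, with 8 genes in colour. Tsc22d3, G0s2 and Arl14ep are highest on day 2, and Epp13, Bdh2 and Cenpk are lowest on day 14.

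Of 24 gene lists written from textbook knowledge with earlier results of these data known, 4 held a member. The list of the Atf4 and amino acid response held none, since its genes named by the rule had been left out, but its changes are given because Chac1 and Ddit3 met the thresholds. Over all genes tested, 20.1% were lower and 19.4% higher in the G9a/GLP DKO-labelled library and 18.4% and 13.5% in G9a CM, against WT TT2. The shares were 21.7% lower and 22.1% higher in Dnmt3a/3b DKO cells and 22.9% lower and 22.9% higher in Dnmt1/3a/3b TKO cells, against WT J1, and the counts of list genes are to be read beside these. In the G9a/GLP DKO-labelled library, 17 of 36 of its genes were lower and 1 higher than in WT TT2, and in G9a CM 11 of 35 were lower and 7 higher. Set against WT J1, Dnmt3a/3b DKO had 13 of 36 lower and 3 higher, and Dnmt1/3a/3b TKO had 22 of 35 lower and 2 higher. Under UNC0638, 2 of 37 were lower and 15 higher on day 2, 7 were lower and 0 higher on day 4, and 14 were lower and 1 higher on day 14, beside the shares over all genes tested given above for each day. Chac1, which breaks down glutathione, had 35.4 TPM in the inhibitor control, 127 TPM on day 2, 3.29 TPM on day 4 and 9.19 TPM on day 14. Ddit3 had 6.34 TPM in the inhibitor control and 76.1, 2.27 and 9.98 TPM on those days. In WT TT2 and WT J1, Chac1 had 38.6 and 32.7 TPM and Ddit3 had 51.4 and 51.3 TPM. In the inhibitor control 18 of 36 list genes were higher than in WT TT2 and 7 lower, where 33.8% and 35.6% of all genes tested were.

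The lysosome list, which holds Ctsl, had 16 of 33 genes lower and 1 higher in each of the Dnmt lines, set against WT J1. In G9a CM 11 of 34 were lower and 4 higher than in WT TT2, and in the G9a/GLP DKO-labelled library 6 of 34 were lower and 9 higher. The list of acyl-CoA and fatty acid oxidation, which holds Bdh2, had 12 of 28 genes lower and 3 higher in the G9a/GLP DKO-labelled library and 8 of 28 lower and 4 higher in G9a CM, against WT TT2. In Dnmt3a/3b DKO it had 7 of 29 lower and 7 higher, and in Dnmt1/3a/3b TKO 5 of 29 lower and 6 higher, against WT J1. The antioxidant and glutathione list (Mgst3) had 8, 6, 10 and 11 of 25 genes lower, and 3, 5, 3 and 3 higher, in the G9a/GLP DKO-labelled library, G9a CM, the Dnmt3a/3b DKO and the Dnmt1/3a/3b TKO lines, each against its own wild type. With so few genes, the counts of the acyl-CoA, antioxidant and clock lists are given as values only. The circadian clock list (Ciart) had 4 of 13, 1 of 13, 3 of 14 and 7 of 14 genes lower in the same mutants, and 3, 2, 3 and 5 higher.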

How the data were processed

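Only the 10 RNA-seq samples of the series' 130 were analysed here. Smart-seq2, a PCR-amplified full-length cDNA method without molecular identifiers, was used on total RNA, per the labels' protocols. Intervals cover counting error only. Per the submitters' processing notes, STAR 2.5.3a and RSEM were used with GRCm38 (mm10). The authors deposited expected counts, gene lengths and TPM per gene, and 4.26% to 6.17% of the expected counts in a library were not whole. The strand setting of the counting is not given in the labels, so overlapping and antisense genes (Chrna1os, for example) cannot be told apart from their partners.

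The rule was applied to the deposited TPM. Expected counts were rounded and scaled to CPM with TMM factors over all 10 libraries (edgeR 4.0.16, R 4.3.3). A floor of 3 counts equals 0.124 to 0.237 CPM. Count ratios carry exact 95% conditional binomial (Clopper-Pearson) intervals (scipy 1.17.1). DESeq2 1.42.0 size factors, total counts, TPM scaling, other thresholds and leaving out single libraries were tried as alternatives. In counts simulated for 52550 genes with counting error only, the call rule found 100% of 200 genes changed 3-fold in each of 4 comparisons (the UNC0638 days, and the inhibitor control against WT TT2), the intervals covered 94.5% to 96.5% of the true ratios and 43 to 81 unchanged genes were called. Smaller changes were not simulated. The symbol table named 93.3% of gene IDs, and RefSeq (GRCm38.p6) gave places, types and promoters. Unplaced members could not be checked for chromosome Y. The members and all gene lists were chosen with earlier results of these data known. Genes named were the 12 members with the lowest ratios, the 6 with the largest fall and the 6 with the largest rise under UNC0638, the 6 most abundant, members of a list and those next to the threshold; other members named were chosen after their values were seen. Members without a symbol are mostly given by number. A promoter sequence of 1 further member is not reported here.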

Additional observations from a re-analysis of the deposited data

How the results depend on the processing

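No paired analysis was possible because each RNA-seq group has 1 library and no test was made. Of 95 values recomputed under other settings, 68 stayed close to the value reported and 27 moved. Of 108 ratios of single genes, 9 moved beyond their counting interval and 8 came to lie on the other side of 1, all on day 2 and none of them called (in Cenpk, Efcab10, Mgst3, Pdlim2 and 1700097N02Rik). The 66 members became 13 at a threshold of 0.5, 155 at 0.8, 149 with TPM rescaled by TMM factors (all 66 kept), 130 with each mutant against its own wild type only and 7 with the inhibitor control as a further wild type; leaving out 1 library gave 80 to 568. The 7 members lower in all 4 mutants than in the inhibitor control became 4 with TMM-rescaled TPM, 3 at 0.5 and 15 relative to the length class. Total counts and deposited TPM gave 1 and 1 members lower on day 2 in place of 3, 4 and 3 lower on day 14 in place of 7, and 1 and 1 higher on day 14 in place of 0. They gave a day 2 median of 0.32 and 0.41 and a day 14 median of -0.03 and -0.00. Under these scalings the median of all genes tested itself moved to 0.22 and 0.23 on day 2 and 0.08 and 0.09 on day 14, and the members lay 0.10 and 0.18 above it on day 2 and 0.11 and 0.09 below it on day 14. DESeq2 size factors gave 8 members higher on day 2 in place of 13. At a fold of 2, day 2 had 0 lower and 3 higher, day 4 had 0 lower and day 14 had 2 lower. Deposited TPM gave 1 member higher in the inhibitor control than in WT J1 in place of 0. The cause was not tested in any of these. Single libraries limit every value to the cultures sampled, and the 6 small RNAs with 1 to 6 counts cannot be read at this depth.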
